A study of Rattus norvegicus with 294 samples.

Results

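The 6 genes described here encode parts of the contractile apparatus of muscle, as measured in laser captures of vertebral bone: Tnnc1, Tnnc2, Tpm2, Acta1, Ckm and Myl9. The genes were selected on earlier results of the same arrays, taken here to be those of the osteocyte captures, since the contrasts used are not given. Each is read from a probe set that lists no other gene, and where there are several, from the brightest on average on the log2 scale. All 6 of 6 were on the array, out of 14217 genes. Tpm2 had a second probe set, and the other members had 1 each.

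Female Sprague-Dawley rats were ovariectomized at 6 months of age, left untreated for 8 weeks and then injected under the skin each week with an antibody against sclerostin (Scl-Ab), the osteocyte protein that restrains Wnt signalling, at 50 or 3 mg/kg, or with vehicle. All groups, vehicle included, were ovariectomized, and the antibody had been engineered to lower its immunogenicity in rats. Dosing ran to day 183. Cells were cut by laser from cryosections of lumbar vertebrae, with a calcein label marking bone-forming surfaces, and their RNA was amplified before hybridisation. Captures enriched for osteocytes (97 arrays), osteoblasts (97 arrays) and lining cells (100 arrays) were taken on days 8, 29, 85 and 183, and then after dosing at 3 mg/kg with vehicle on days 197 and 267 and at 50 mg/kg with vehicle on days 237 and 309. Of the 60 groups, 55 held 5 arrays, 4 held 4 and 1, osteocytes at 50 mg/kg on day 85, held 3. The design text has the first 5 animals of each group and time used for capture, so arrays of different cell types may share rats, which the labels do not name. The p-values measure the spread between arrays labelled as separate samples of 1 cell type. Both doses on days 8 to 183 share the vehicle arrays of the day, and a lower signal from fewer cells of a type cannot be told apart from less RNA per cell.

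Muscle contracts when calcium binds troponin C on the thin filament, which shifts tropomyosin along actin and lets myosin heads engage. Tnnc1 is the troponin C of slow skeletal and cardiac fibres, and Tnnc2 that of fast skeletal fibres. Tpm2 encodes beta-tropomyosin, a filament protein that non-muscle cells also use. Acta1 is skeletal muscle alpha-actin, and Ckm is the muscle creatine kinase that restores ATP at the filament. Myl9 is a regulatory light chain of the smooth muscle and non-muscle myosins, found in many cells with stress fibres. Back muscle lies against the vertebral body, and neither osteocytes nor bone surface cells are muscle cells.

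Sequence upstream of the start site was matched for 4 of the 6 members in the RefSeq promoter table (build GRCr8), not for Tnnc1 and Myl9. The 250 bases before the start are shown here for Tnnc2, Acta1 and Ckm, which moved together in single arrays. They are also shown for Tpm2, which correlated weakly with those genes. Capitals mark E-boxes (CANNTG, the motif of the MyoD family), the CArG box bound by serum response factor, and the TATA box (TATAAA). Both strands were searched, also for the MEF2 site, and marked motifs do not overlap. The window of Tnnc2 is chr3:173935340-173935589 on the minus strand, that of Acta1 chr19:68784195-68784444 on the minus strand, that of Ckm chr1:88189211-88189460 on the plus strand and that of Tpm2 chr5:62575727-62575976 on the minus strand.
Tnnc2: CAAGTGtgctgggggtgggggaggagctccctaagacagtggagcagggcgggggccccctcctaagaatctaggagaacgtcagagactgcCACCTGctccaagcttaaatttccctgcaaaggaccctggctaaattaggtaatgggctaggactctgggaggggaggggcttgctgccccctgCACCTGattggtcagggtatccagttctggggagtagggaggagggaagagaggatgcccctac
Acta1: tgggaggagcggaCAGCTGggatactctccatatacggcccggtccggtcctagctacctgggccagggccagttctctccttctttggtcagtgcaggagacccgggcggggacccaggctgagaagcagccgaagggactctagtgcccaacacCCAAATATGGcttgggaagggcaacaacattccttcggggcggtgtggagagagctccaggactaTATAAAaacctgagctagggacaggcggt
Ckm: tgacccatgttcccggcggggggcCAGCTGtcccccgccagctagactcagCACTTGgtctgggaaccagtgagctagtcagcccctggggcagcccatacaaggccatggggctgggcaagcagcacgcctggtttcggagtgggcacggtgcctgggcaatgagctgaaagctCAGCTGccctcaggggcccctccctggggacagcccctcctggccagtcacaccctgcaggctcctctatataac
Tpm2: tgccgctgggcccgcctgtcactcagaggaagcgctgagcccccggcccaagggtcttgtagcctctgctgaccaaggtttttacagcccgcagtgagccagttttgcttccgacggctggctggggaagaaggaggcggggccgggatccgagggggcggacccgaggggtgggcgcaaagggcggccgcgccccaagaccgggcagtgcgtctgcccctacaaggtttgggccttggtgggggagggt
The Tnnc2 window held 3 E-boxes and that of Ckm 3. Acta1 held 1 E-box, 1 CArG box and 1 TATA box, and none of the 4 motifs was found in the Tpm2 window. Of 33465 promoter windows of the same length, 65.5% held an E-box, 1.5% a CArG box, 2.96% a MEF2 site and 12.9% a TATA box.

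The osteocyte label was checked against its markers. Mepe and Dmp1, matrix proteins of osteocytes, had median log2 signals of 11.64 and 11.23 in osteocyte captures, and both were above the array's median signal in 97 of 97 arrays. Sost, which encodes sclerostin, had a median of 2.99 and was above the array median in 47 of 97, and Fgf23 in 2 of 97. Osteoblast products were also high in these captures, with a median of 11.15 for Bglap and 12.18 for Col1a2, as was Hbb of red cells at 12.17. The part of other cells in the osteocyte captures was not tested.

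The members fell into a brighter and a dimmer set in vehicle arrays. Tpm2 (6.21 ± 0.73), Myl9 (5.66 ± 0.49) and Tnnc1 (4.45 ± 0.48; SD, n = 40 osteocyte arrays each) were above the array median in 40, 40 and 39 of 40 arrays. Tnnc2, Ckm and Acta1 averaged 3.09 ± 0.78, 2.95 ± 0.36 and 2.37 ± 0.37 and were above it in 15, 12 and 2 of 40 arrays. Array medians in osteocytes ran from 2.89 to 3.12, so these 3 genes lay near or under the middle of the array. Signals of different probe sets are not comparable as amounts, so the order is one of detection against the same array, not of transcript number.

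As deposited, 0 of the 6 members were higher in osteocytes than in osteoblasts, and 1, Ckm, was higher than in lining cells, by 0.07. Among vehicle arrays (n = 40 each), Myl9 averaged 5.66 ± 0.49 in osteocytes, 7.62 ± 0.46 in osteoblasts and 7.06 ± 0.49 in lining cells, a difference of -1.95 between osteocytes and osteoblasts and of -1.40 between osteocytes and lining cells. The ranges of osteocytes and osteoblasts overlapped only between 6.73 and 7.08. Tnnc1 averaged 4.45 ± 0.48 in osteocytes, 5.56 ± 0.53 in osteoblasts and 5.34 ± 0.35 in lining cells. Tpm2 averaged 6.21 ± 0.73 in osteocytes, 6.82 ± 0.62 in osteoblasts and 6.22 ± 0.63 in lining cells, with osteocytes and lining cells apart by less than their spread. Tnnc2, Ckm and Acta1 differed between cell types by 0.65 or less. The cell types have different quantiles as deposited, and the median difference over all genes was -0.58 for osteocytes minus osteoblasts and -0.23 for osteocytes minus lining cells. After quantile normalization, Myl9, Tnnc1 and Tnnc2 kept their sign in osteocytes minus osteoblasts (-1.16, -0.29 and -0.09), whereas Tpm2, Acta1 and Ckm turned to 0.19, 0.09 and 0.32. No test was made of these levels.

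**Figure D1:**
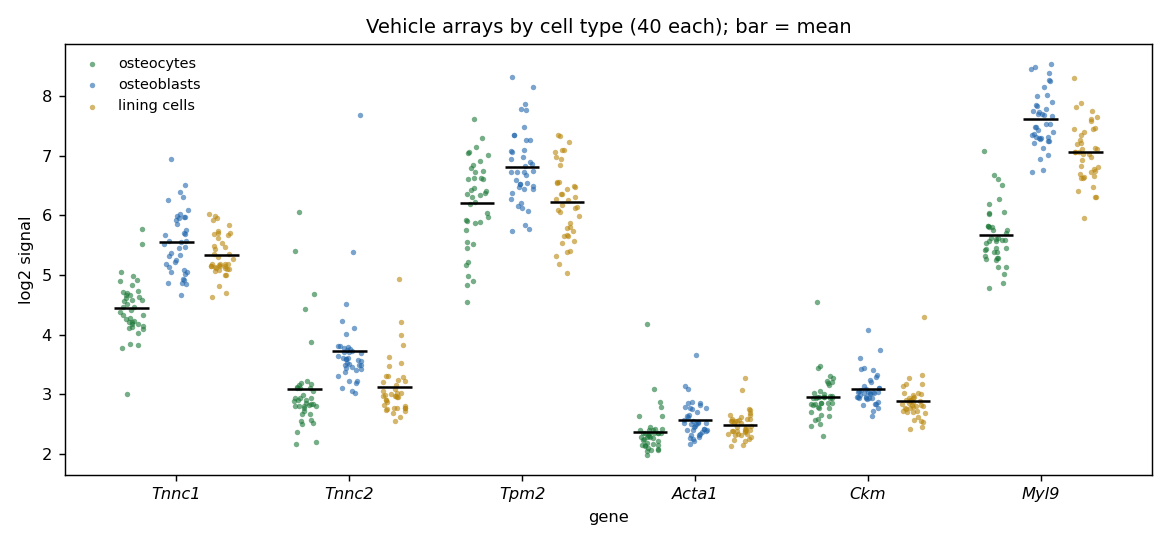
Log2 signal (vertical axis) of the 6 genes in vehicle arrays of osteocytes, osteoblasts and lining cells, 1 point per array (40 per cell type), with the mean as a bar. Tpm2, Myl9 and Tnnc1 sit well above Tnnc2, Ckm and Acta1, Myl9 is lowest in osteocytes, and single arrays of Tnnc2 reach 6.07 in osteocytes and 7.68 in osteoblasts.

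Tnnc1 was the member with the largest difference between antibody and vehicle in osteocytes. On day 29 it read 6.52, 7.46, 7.52, 5.02 and 7.42 in the 5 arrays at 50 mg/kg, against 4.27, 4.63, 4.22, 4.99 and 4.90 in vehicle arrays. The 5 antibody arrays all lay above the 5 vehicle arrays, the lowest of them only just. The difference was 2.19 (SE 0.39), a 4.56-fold higher signal. On day 85 the 3 arrays at 50 mg/kg read 7.48, 6.54 and 7.89, against 3.82, 4.22, 4.52, 4.73 and 3.00 in vehicle, a difference of 3.24 (SE 0.45) or 9.47-fold. Here the groups were separated by more than 1 unit.

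On day 183, Tnnc1 read 6.99, 6.64, 7.24, 7.21 and 7.09 at 50 mg/kg, against 4.66, 4.32, 4.12, 4.56 and 4.61 in vehicle. This was the tightest of the days, with a difference of 2.58 (SE 0.39), 5.97-fold, and an SD of 0.24 in antibody arrays and of 0.23 in vehicle arrays. After dosing had ended, on day 237, the values were 5.33, 6.11, 8.07, 6.93 and 8.50 at 50 mg/kg, against 4.18, 3.77, 4.22, 4.18 and 4.47 in vehicle, a difference of 2.82 (SE 0.39) or 7.07-fold. Antibody arrays were spread over more than 3 units, and none reached down to the vehicle arrays. On day 309 they read 6.51, 5.91, 4.34, 5.38 and 4.30, against 4.58, 4.39, 4.13, 3.84 and 5.05 in vehicle, and the groups overlapped (difference 0.89, SE 0.39).

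The differences of Tnnc1 were smaller on day 8 and at 3 mg/kg. On day 8 the 50 mg/kg arrays (4.86 ± 0.75) and vehicle arrays (5.06 ± 0.56; SD, n = 5 each) differed by -0.20 (SE 0.39). At 3 mg/kg the differences ranged from -0.29 to 1.08 over the 6 days, and on 0 of 6 did the groups separate. The largest, on day 85, came from arrays at 6.61, 5.21, 3.90, 5.48 and 4.51, against 3.82, 4.22, 4.52, 4.73 and 3.00 in vehicle. In osteocyte arrays as a whole, Tnnc1 exceeded its median of 4.66 by more than 1 unit in 21 of 97 and by more than 2 units in 12.

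Tpm2 was higher at 50 mg/kg than in vehicle on all 6 days in osteocytes, by 0.23 to 2.29, and the groups did not overlap on 4 of them. For what share of all genes the groups separated, for Tpm2 as for Tnnc1, is not given here. On day 29 it read 7.32, 7.56, 7.73, 7.11 and 6.98 at 50 mg/kg, against 6.43, 6.30, 5.45, 6.75 and 6.63 in vehicle, a difference of 1.03 (SE 0.34) or 2.04-fold. On day 183 it read 7.22, 6.95, 6.79, 7.15 and 7.52, against 6.63, 5.93, 5.56, 6.19 and 6.22 in vehicle, a difference of 1.02 (SE 0.34) or 2.03-fold. With the mean of both Tpm2 probe sets the differences were 0.57 and 0.56. On both days the lowest antibody array lay just above the highest vehicle array. On day 237 Tpm2 read 7.42, 7.45, 8.72, 8.79 and 7.78 at 50 mg/kg, against 6.61, 6.46, 5.52, 6.42 and 5.87 in vehicle, with a difference of 1.85 (SE 0.34) or 3.62-fold. On day 309 it read 8.74, 7.88, 7.14, 7.02 and 7.28, against 4.55, 5.98, 5.89, 4.98 and 5.23 in vehicle. That is the largest difference of Tpm2, 2.29 (SE 0.34) or 4.89-fold, and on this day the vehicle mean (5.32 ± 0.61) was the lowest of the 8 days, while that of day 8 (6.95 ± 0.46) was the highest. At 3 mg/kg Tpm2 differed by 0.10 to 0.59, with overlap on all 6 days.

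**Figure D2:**
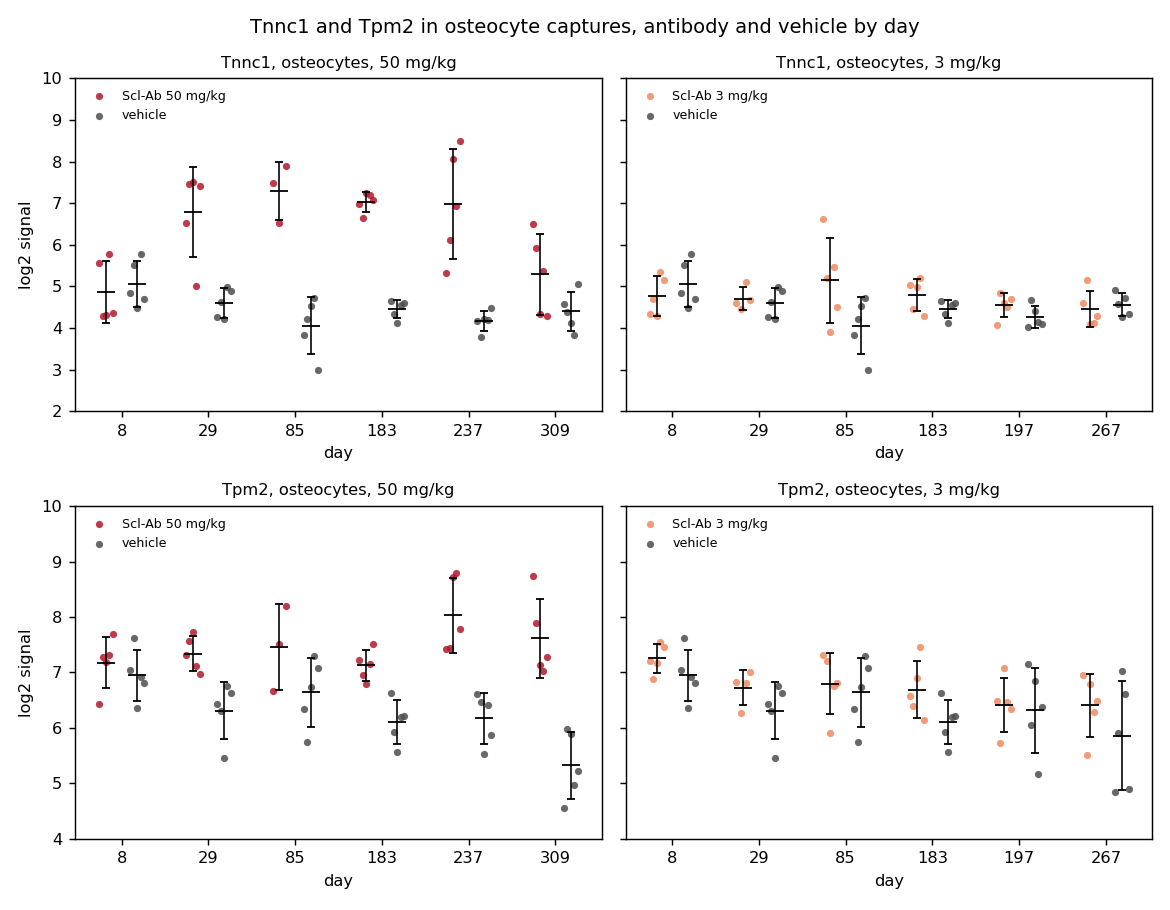
Log2 signal of Tnnc1 (upper row) and Tpm2 (lower row) in osteocyte arrays by day, at 50 mg/kg (left column) and 3 mg/kg (right column), each antibody group left of the vehicle group of the day. Points are arrays and bars are mean ± SD; Tnnc1 at 50 mg/kg stands clear of vehicle on days 29 to 237 and overlaps it on days 8 and 309, and Tpm2 stands clear on days 29, 183, 237 and 309.

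By the threshold used elsewhere (limma's adjusted p under 0.05 over 11864 genes), 10 of 72 member comparisons in osteocytes were past it, all higher at 50 mg/kg. These were Tnnc1 on days 29, 85, 183 and 237, Tpm2 on days 237 and 309, and Tnnc2, Acta1, Ckm and Myl9 on day 309. Of all genes, 6.5% were past it on day 29, 10.1% on day 85, 6.38% on day 183, 13.2% on day 237 and 16.4% on day 309, and 1.02% in the other 7 contrasts together. Nothing is read from these counts, because the members are taken to have been selected on osteocyte results.

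Tnnc1 is a slow-fibre gene, and other genes of slow and cardiac muscle were read beside it. Of 13 measured genes of a slow and cardiac list, 0 had an osteocyte array more than 1 unit above the gene's median. The widest ranges were those of Atp2a2 (7.17 to 9.14) and Tpm3 (8.72 to 10.61). Myh7, the slow myosin heavy chain, ranged from 1.89 to 3.42. The median difference of the 8 genes of the list that passed the filter lay, at 50 mg/kg, between -0.07 and 0.03 on days 29 to 237, where that of all genes lay between -0.02 and 0.02. On day 309 it was 0.13, where that of all genes was -0.01. The part of slow-fibre muscle in the Tnnc1 results was not tested. The skeletal muscle factors Myod1, Myog and Myf6 stayed at a median of 2.41 or lower. Mef2c, a factor of muscle that osteocytes also express, was the one gene of that list above the array medians, and differed by 2.18, 2.56, 3.03 and 2.78 on days 29, 85, 183 and 237.

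The genes whose pattern over the 97 osteocyte arrays was most like that of Tnnc1 were no sarcomere genes. They were Bnip3, a mitochondrial protein of hypoxia and mitophagy (Pearson r 0.87, Spearman rho 0.65), Aldoc, an aldolase of glycolysis (0.85 and 0.61), and Id1, a target of BMP signalling (0.84 and 0.74). Their differences at 50 mg/kg on day 85 were 2.81, 2.06 and 2.74. For Tpm2 they were Pmp22, a membrane protein best known from myelin (0.76 and 0.73), Htra1, a secreted serine protease (0.76 and 0.75), and Dlx3, a homeobox factor of osteoblasts (0.75 and 0.74). Tnnc1 and Tpm2 correlated with each other (r 0.56, rho 0.55). These are descriptions over arrays that may share rats and whose normalization is not given, and dose and day run through both axes.

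Markers of other cells differed on some of these days. The mean log2 signal of the 4 red-cell genes tested (Hbb, Alas2, Slc4a1, Epb42) was 7.42 to 8.04 at 50 mg/kg and 8.28 to 9.28 in vehicle on day 237, and on day 309 it was 7.29 to 9.01 at 50 mg/kg and 8.94 to 9.70 in vehicle. On day 183 it was 7.20 to 7.67 at 50 mg/kg and 7.17 to 7.80 in vehicle. The mean of the 5 osteocyte markers was 6.71 to 6.92 at 50 mg/kg and 5.49 to 5.89 in vehicle on day 183. On day 29 it was 6.78 to 7.48 at 50 mg/kg and 5.72 to 6.46 in vehicle. These ranges were 7.02 to 7.31 and 6.29 to 6.83 on day 85. They were 6.72 to 6.96 and 5.06 to 6.35 on day 237, and overlapped on day 309. The mean of the 5 osteoblast markers was 8.53 to 9.09 at 50 mg/kg and 9.81 to 10.17 in vehicle on day 237. Its ranges overlapped on days 29, 85, 183 and 309. The mean of 16 smooth muscle and pericyte genes was 4.06 to 4.26 at 50 mg/kg and 3.62 to 3.80 in vehicle on day 183. These ranges were 4.12 to 4.35 and 3.62 to 3.90 on day 85. They were 3.92 to 4.28 and 3.49 to 3.77 on day 237, and 3.60 to 4.01 and 3.37 to 3.57 on day 309. On day 29 they overlapped. The mean of the tendon and fibrous tissue genes was 5.00 to 5.18 at 50 mg/kg and 4.61 to 4.99 in vehicle on day 29. These ranges were 4.98 to 5.0 and 4.62 to 4.88 on day 85, and overlapped on days 183, 237 and 309. The part of these cells in the Tnnc1 and Tpm2 results was not tested.

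Tnnc2, Acta1 and Ckm had another pattern: most osteocyte arrays held them at the low end, and a few arrays held all of them high. Tnnc2 had a median of 2.94 over 97 arrays and reached 8.79, exceeding its median by more than 1 unit in 15 arrays and by more than 2 in 9. Acta1 did so by 1 unit in 7 arrays and Ckm in 5, and by 2 units in 1 array each. The highest of Tnnc2 was replicate 1 of the 3 mg/kg arrays of day 183, with 8.79 for Tnnc2, 3.68 for Acta1 and 4.52 for Ckm, while the other 4 arrays of that group held Tnnc2 at 3.02 to 3.40.

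The next was replicate 2 at 50 mg/kg on day 309, with 8.64 for Tnnc2, 4.95 for Acta1 and 5.92 for Ckm, the highest Acta1 and Ckm of any osteocyte array. Replicate 1 at 50 mg/kg on day 183 held 7.29, 3.12 and 4.52. Replicates 3 and 4 at 3 mg/kg on day 267 held 7.22 and 6.88 for Tnnc2, 3.78 and 3.82 for Acta1, and 4.43 and 3.92 for Ckm. A vehicle array, replicate 2 of day 267, held 6.07, 4.18 and 4.55, so vehicle arrays had such values too. Replicate 3 at 50 mg/kg on day 237 held 6.23, 3.44 and 3.71.

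These arrays carried other genes of a fast skeletal muscle list too, which also holds genes not confined to fast fibres. In 6 of the 97 osteocyte arrays, at least 5 of 28 further fast skeletal muscle genes were more than 1 unit above their median. They are the arrays just named, apart from that of day 237, which had 4. Over all osteocyte arrays, Myl1, the fast alkali light chain, ranged from 2.03 to 7.21, Tnnt3, the fast troponin T, from 2.18 to 6.28, and Pgam2, the muscle phosphoglycerate mutase, from 2.71 to 6.36. The genes nearest to Tnnc2 over the 97 arrays were Myl1 (r 0.92, rho 0.45), Tnni2, the fast troponin I (0.85 and 0.34), and Mybpc2, the fast myosin-binding protein C (0.84 and 0.51). Myl1, Tnni2 and Tnnc2 were nearest to Acta1 (r 0.85, 0.83 and 0.81) and to Ckm (r 0.87, 0.83 and 0.83).

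The correlations were lower in ranks and without these arrays. Tnnc2 and Ckm correlated with r 0.83 but rho 0.39 over 97 arrays, and with r 0.47 over the 91 arrays left without the 6. For Tnnc2 and Acta1 the values were r 0.81 and rho 0.29, and r 0.56 without them. Tnnc1 and Tnnc2 were unrelated (r 0.07, rho 0.03), whereas Tnnc1 and Tpm2 kept r 0.56 without the 6 arrays. The array with the highest Tnnc1, at 8.50 (50 mg/kg, day 237, replicate 5), held Tnnc2 at 2.53, Acta1 at 2.16 and Ckm at 2.78. The next highest, at 8.07 (50 mg/kg, day 237, replicate 3), held Tnnc2 at 6.23, Acta1 at 3.44 and Ckm at 3.71. In the 6 arrays Tnnc1 was 4.09 to 6.99.

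**Figure D3:**
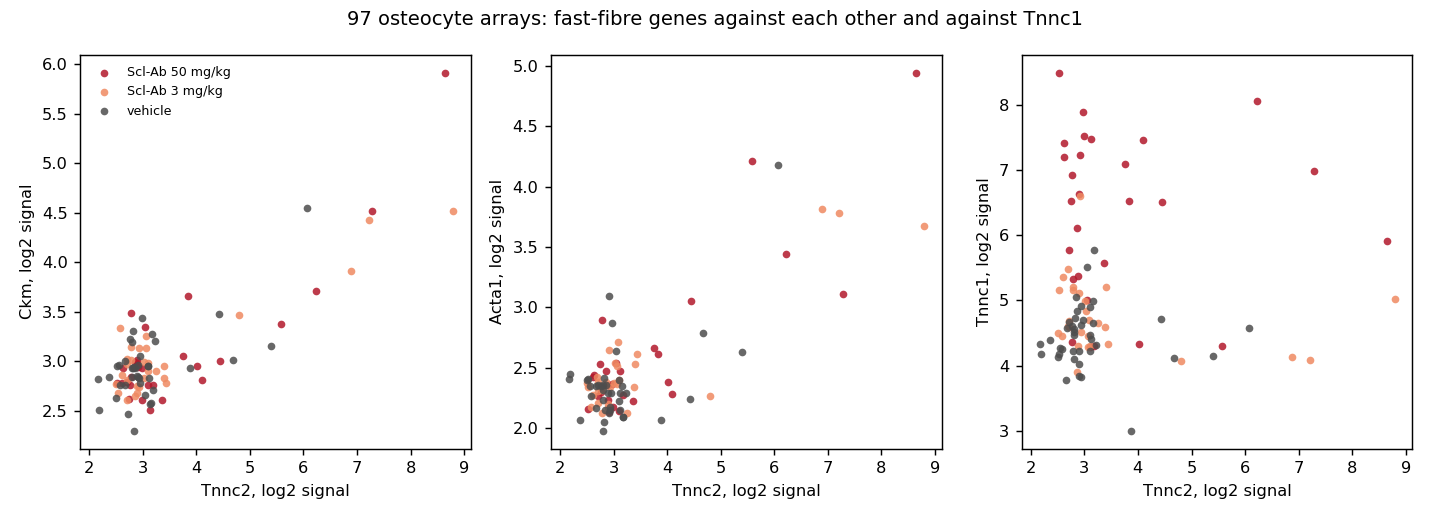
Each point is 1 of 97 osteocyte arrays, coloured by treatment, with log2 signal of Tnnc2 on the horizontal axis and of Ckm, Acta1 or Tnnc1 on the vertical axis. The arrays highest in Ckm and Acta1 are also high in Tnnc2, in both doses and vehicle, though other arrays with raised Tnnc2 hold both low, while Tnnc1 is high at 50 mg/kg, mostly in arrays with Tnnc2 near 3.

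Arrays with several members high came late in the study in osteocytes. At least 3 of the 6 members were more than 1 unit above their median in 8 of 97 arrays, all among the 55 arrays of day 183 and later and none among the 42 earlier ones. By treatment they were 5 of 28 arrays at 50 mg/kg, 2 of 29 at 3 mg/kg and 1 of 40 in vehicle. This count includes Tnnc1 and Tpm2, which were higher at 50 mg/kg. Tnnc2, Acta1 and Ckm were all that high in 1 of 28 arrays at 50 mg/kg, 2 of 29 at 3 mg/kg and 1 of 40 in vehicle. At least 1 of Tnnc2, Acta1 and Ckm was that high in 14 of the 55 late arrays and 1 of the 42 early ones. In osteoblasts the numbers were 2 of 54 and 4 of 43, and in lining cells 1 of 55 and 5 of 45. These counts were not tested, and the labels give no batch. The sample titles of the early arrays and of day 183 are numbered in separate series, and what the numbers stand for is not given.

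Single arrays of the surface captures had such values too. Replicate 5 of the 3 mg/kg lining cell arrays of day 85 held Tnnc2 at 9.08, Acta1 at 5.57 and Ckm at 7.07. It had 13 further genes of the fast skeletal muscle list raised, the most of any array. Replicate 4 at 3 mg/kg on day 8 held 6.93, 3.64 and 4.32. In osteoblasts, replicate 3 of the vehicle arrays of day 29 held 7.68, 3.65 and 4.07.

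Day 309 is where such an array meets a group difference. Tnnc2 read 4.45, 8.64, 4.02, 2.89 and 5.58 at 50 mg/kg, against 2.67, 2.37, 2.50, 2.91 and 2.84 in vehicle. Of the 5 antibody arrays, 4 were above every vehicle array, and the difference was 2.46 (SE 0.75). Acta1 read 3.05, 4.95, 2.38, 2.36 and 4.21, against 2.35, 2.07, 2.40, 2.13 and 2.15 in vehicle, a difference of 1.17 (SE 0.28). Ckm read 3.01, 5.92, 2.95, 3.02 and 3.38, against 3.00, 2.85, 2.63, 2.85 and 2.30 in vehicle, a difference of 0.93 (SE 0.31). Without replicate 2 of the antibody arrays the differences were 1.58 for Tnnc2, 0.78 for Acta1 and 0.36 for Ckm (SE 0.74, 0.27 and 0.27). Leaving out that array lowered Tnnc2 and Ckm by more than 1.5 times. The 28 further genes of the fast skeletal muscle list averaged 3.27 to 4.41 at 50 mg/kg and 3.11 to 3.13 in vehicle on that day. The ranges also separated on day 237 (3.27 to 3.70 against 3.055 to 3.22) and on day 29 (3.33 to 3.41 against 3.22 to 3.32). On days 85 and 183 they overlapped. The part of these genes was not tested.

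On the other days at 50 mg/kg, Tnnc2, Acta1 and Ckm differed from vehicle by -0.28 to 0.84 in osteocytes. Tnnc2 on day 237 averaged 3.43 ± 1.57 at 50 mg/kg and 2.60 ± 0.25 in vehicle (SD, n = 5 each), with 1 antibody array at 6.23 and the other 4 at 2.53 to 2.87. At 3 mg/kg the differences of these 3 genes ranged from -0.23 to 0.94, and on day 183 Tnnc2 averaged 4.27 ± 2.53 at 3 mg/kg and 3.33 ± 0.78 in vehicle, with 1 of the 5 antibody arrays at 8.79.

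The second probe set of Tpm2 correlated more with Tnnc2 than with the first, less so in ranks. Its mean log2 signal was 3.08, against 6.73 for the one used. Over osteocyte arrays it correlated with Tnnc2 (r 0.83, rho 0.48) and hardly with the first probe set (r 0.18, rho 0.07). In osteoblasts it correlated with Tnnc2 by r 0.38 and rho 0.18, and with the first probe set by r -0.04 and rho 0.01. In lining cells the values were r 0.71 and rho 0.25 with Tnnc2, and r 0.14 and rho 0.14 with the first probe set. The 2 probe sets of Tpm2 disagree, and the mean of both gave smaller differences at 50 mg/kg in osteocytes: 0.57 on day 29, 0.43 on day 85, 0.56 on day 183, 1.03 on day 237 and 1.72 on day 309.

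The correlations of Myl9 with the other members in osteocytes were between 0.04 and 0.24, and the genes nearest to it, Aup1, Mea1 and Cox5b, reached r 0.60, 0.56 and 0.56. On day 309 it read 6.48, 6.24, 5.59, 5.85 and 6.31 at 50 mg/kg, against 4.86, 4.78, 5.26, 5.26 and 5.61 in vehicle, a difference of 0.94 (SE 0.22) in which 1 antibody array lay just under the highest vehicle array. On day 237 it averaged 6.32 ± 0.42 at 50 mg/kg and 5.81 ± 0.52 in vehicle, and on day 29 it averaged 5.52 ± 0.27 at 50 mg/kg and 5.84 ± 0.27 in vehicle (SD, n = 5 each). Over days in vehicle, Myl9 was highest on day 197 in all 3 cell types, with 6.51 ± 0.41 in osteocytes, 8.23 ± 0.30 in osteoblasts and 7.85 ± 0.29 in lining cells (SD, n = 5 each).

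In osteoblasts and lining cells the members were tested on the assumption that they were selected on osteocyte results. Whether surface captures also entered the selection is not given, and if they did, the p-values here are too small. Of the 6, 4 passed the filter on low signal in osteoblasts (not Acta1 and Ckm) and 5 in lining cells (not Acta1), and passing means a signal above the array median in at least 5 arrays. Changes were judged by limma's adjusted p over all 11415 genes in osteoblasts and 11600 in lining cells. In osteoblasts 6 of 48 member comparisons passed, all higher at 50 mg/kg, and in lining cells 2 of 60, also higher at 50 mg/kg. The osteoblast calls fell on day 29 (2 of 4 members, beside 28.4% of all genes), day 85 (2 of 4, beside 4.47%) and day 237 (2 of 4, beside 10.7%). In lining cells they fell on day 237 (2 of 5, beside 1.45%). In the other contrasts together 0 members were called, beside 2.67% of all genes in osteoblasts and 0.399% in lining cells.

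Tpm2 and Myl9 were the ones that rose in both surface captures on day 237, after dosing at 50 mg/kg had ended. In osteoblasts, Tpm2 read 7.81, 7.46, 8.14 and 8.49 at 50 mg/kg, against 6.48, 7.10, 5.85, 6.60 and 6.53 in vehicle. All 4 antibody arrays lay above the vehicle arrays, and the rise was 1.47 (SE 0.30, limma's adjusted p = 0.000892), 2.77-fold. Over the 7 alternative settings of processing, this rise of Tpm2 ran from 0.80 to 1.53. Myl9 read 8.52, 8.81, 8.94 and 7.69, against 7.49, 7.79, 7.35, 7.28 and 7.84 in vehicle, a rise of 0.94 (SE 0.23, limma's adjusted p = 0.00422) in which 3 of the 4 antibody arrays cleared vehicle.

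In lining cells on day 237, Myl9 read 7.97, 7.93, 7.88, 8.38 and 8.05 at 50 mg/kg, against 7.45, 6.64, 6.99, 6.62 and 6.82 in vehicle. The groups did not overlap, and the rise was 1.14 (SE 0.25, limma's adjusted p = 0.00861), 2.20-fold. Tpm2 read 6.24, 6.42, 7.57, 7.03 and 6.97, against 6.36, 6.13, 5.38, 5.55 and 5.18 in vehicle, a rise of 1.13 (SE 0.30, limma's adjusted p = 0.0308) with 1 vehicle array among the antibody values. The Tpm2 call ended on leaving out antibody replicate 3, 4 or 5 or vehicle replicate 3, 4 or 5, where the rise was 0.94 to 1.09 (limma's adjusted p = 0.0626 to 0.124).

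On day 29 in osteoblasts, Myl9 read 8.05, 7.68, 7.96, 7.85 and 8.28 at 50 mg/kg, against 7.44, 6.73, 7.31, 7.32 and 7.54 in vehicle. It rose by 0.70 (SE 0.21, limma's adjusted p = 0.0107) with no overlap, though without vehicle replicate 2 the rise was 0.56 (limma's adjusted p = 0.0613). Tpm2 averaged 7.58 ± 0.29 at 50 mg/kg and 6.85 ± 0.75 in vehicle (SD, n = 5 each), a rise of 0.73 (SE 0.28) with limma's adjusted p = 0.0427. That call ended on leaving out any of antibody replicates 1, 2, 3 and 5 or vehicle replicates 2, 3 and 5, with a rise of 0.47 to 0.76 (limma's adjusted p = 0.0559 to 0.245).

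Tnnc1 rose in osteoblasts on day 85. It read 6.41, 6.77, 6.43 and 6.28 at 50 mg/kg, against 5.55, 4.93, 5.58, 5.08 and 5.31 in vehicle. The groups did not overlap, and the rise was 1.18 (SE 0.25, limma's adjusted p = 0.0014), 2.26-fold. Myl9 rose with it by 0.80 (SE 0.23, limma's adjusted p = 0.0236), with 8.82, 8.73, 8.46 and 8.90 at 50 mg/kg against 7.68, 7.70, 8.50, 8.46 and 7.30 in vehicle. The Myl9 call ended without antibody replicate 1, 2 or 4 or vehicle replicate 1, 2 or 5, with a rise of 0.64 to 0.80 (limma's adjusted p = 0.0542 to 0.102).

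Tnnc1 on the other days at 50 mg/kg differed by -0.35 to 0.23 in osteoblasts (limma's adjusted p = 0.41 to 0.837). In lining cells it differed by -0.40 to 0.59 over all 6 days (limma's adjusted p = 0.193 to 0.999). The osteocyte differences of 2.19 to 3.24 on days 29 to 237 are given beside these without a test between cell types. On day 183, Myl9 read 7.32, 7.57, 7.33, 7.72 and 7.40 in lining cells at 50 mg/kg, against 6.78, 6.65, 6.69, 6.93 and 6.81 in vehicle. It did not overlap and yet missed the threshold (difference 0.70, limma's adjusted p = 0.176), as did Myl9 in osteoblasts on that day (0.63, limma's adjusted p = 0.0671).

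Tnnc2 passed in neither surface capture. In osteoblasts on day 29 it averaged 3.69 ± 0.25 at 50 mg/kg and 4.51 ± 1.80 in vehicle (SD, n = 5 each), a difference of -0.83 (SE 0.36, limma's adjusted p = 0.0751), where the vehicle spread holds the array at 7.68. At 3 mg/kg, 0 members passed in either capture. Few genes of any kind did: 0 to 69 of 11415 per day in osteoblasts and 0 to 125 of 11600 in lining cells.

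**Figure D4:**
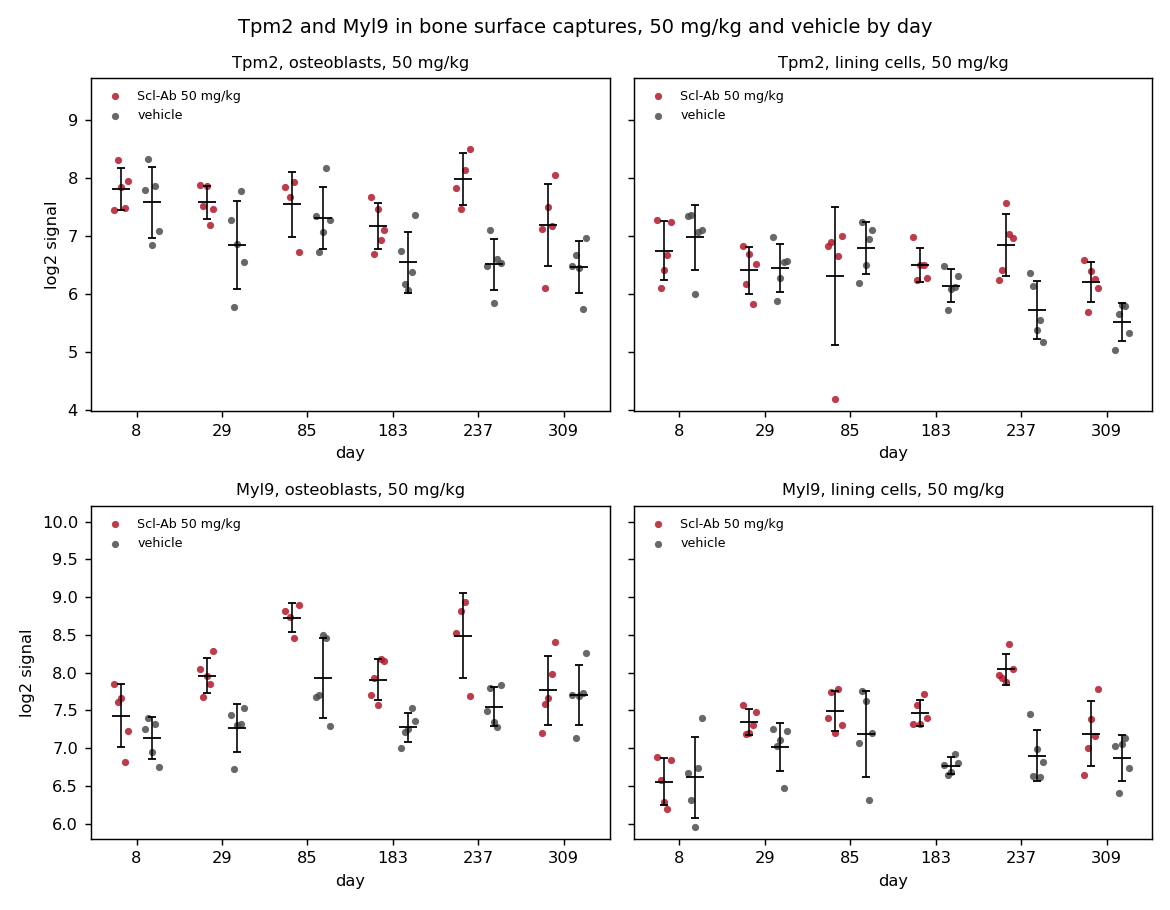
Log2 signal of Tpm2 (upper row) and Myl9 (lower row) in osteoblasts (left column) and lining cells (right column) by day, with the 50 mg/kg group left of the vehicle group of the day. Points are arrays and bars are mean ± SD; on day 237 Tpm2 in osteoblasts and Myl9 in lining cells lie wholly above vehicle.

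Related gene lists in surface captures were counted beside the 10.7% of all genes called in osteoblasts on day 237, 28.4% on day 29 and 4.47% on day 85, and the 1.45% called in lining cells on day 237. Of 12 smooth muscle and pericyte genes tested in osteoblasts on day 237, 1 rose and 0 fell: Cald1, the actin-binding caldesmon, by 1.23 (SE 0.25, limma's adjusted p = 0.000682). On day 29 Cald1 rose by 0.73 and Mylk, the myosin light chain kinase, fell by 0.40. The median of the 12 was 0.28 on day 237 and that of all genes -0.04. In lining cells on day 237, 0 of 12 passed. In the fast skeletal muscle list, 1 of 17 genes tested rose in osteoblasts on day 237 (Tmod4, by 0.62, limma's adjusted p = 0.016). In lining cells 1 of 20 did on that day (Mb, by 0.57, limma's adjusted p = 0.0176). Mb is myoglobin, which is not confined to fast fibres. Of 9 slow and cardiac genes, 1 rose in osteoblasts on that day (Csrp3, by 0.43, limma's adjusted p = 0.0404). Mef2c fell by 0.67 in osteoblasts on day 29 (limma's adjusted p = 0.0462) and rose by 0.93 on day 85 (limma's adjusted p = 0.0355).

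Bone genes also changed on these days. In osteoblasts on day 29, 3 of 5 osteoblast markers tested rose, Alpl by 1.05, Bglap by 1.24 and Col1a1 by 1.97, while Ibsp fell by 0.83 (limma's adjusted p = 0.0197). On day 85, 4 of 5 osteoblast markers tested rose, Col1a1 by 2.41 (SE 0.43), and on day 237 Alpl rose by 0.70 while Bglap fell by 1.45. Of 6 tendon and fibrous tissue genes, 4 rose on day 29, 2 on day 85 and 0 on day 237. The mean of the 4 red-cell genes in osteoblasts on day 237 was 9.70 to 10.07 at 50 mg/kg and 9.82 to 10.25 in vehicle. The part of any of these cells in the results on Tpm2, Myl9 and Tnnc1 was not tested.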

How the data were processed

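Affymetrix rat expression arrays of amplified RNA from laser captures were used (294 arrays). The deposited values are signal intensity on a linear scale, from 2.94 to 28282, and the submitters' processing notes list RMA, affy 1.38.1, R 3.0.1 and Affymetrix Expression Console without saying what each did. The step that set the scale and the normalization across cell types are not given in the sources used here. Precision is set by how many arrays each group holds.

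The tests had been laid out for log2 values, so log2 of the deposited intensity was taken. Of 31042 probe sets, 20826 had 1 listed gene, 436 several and 9780 none. Of those with 1 listed gene, 20758 took their symbol from the gene table. Each of 14217 genes was represented by its probe set of highest mean. Genes above the array median in at least 5 arrays of a cell type were tested with limma 3.58.1 in R 4.3.3 (lmFit, eBayes), with 1 mean for each of 20 groups of a cell type and 12 contrasts against vehicle, adjusted by Benjamini-Hochberg over all genes of the contrast, with a threshold of 0.05. The fit was tested on simulated data. Python 3.11.15, pandas 2.3.3 and numpy 2.4.6 were used for summaries.

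The members and gene lists were chosen with earlier results of these data known, so osteocyte contrasts are described without p. The genes to name were the members, the 3 genes of highest Pearson correlation to each over osteocyte arrays, and up to 4 examples per list by range. Lists of fast skeletal muscle, slow and cardiac muscle, smooth muscle and pericytes, tendon and fibrous tissue, red cells, skeletal muscle transcription factors, osteocytes and osteoblasts were counted. Alternatives were no filter, quantile normalization, the mean of probe sets, array weights and the compared groups alone. Others left out single arrays, or arrays that stood apart in other genes of the fast skeletal muscle list. Such arrays were taken by the list's mean or by 5 or more raised genes. Replicate numbers here follow accession order only, so nothing was paired.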

Additional observations from a re-analysis of the deposited data

Results flagged for a closer look

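Among 114 combinations of a member and an osteocyte group of 4 or 5 arrays, examined for 1 array far from the others (Dixon's critical value, 0.71 for 5 arrays and 0.829 for 4), 13 held one. Chance gives about 1 in 20 for a single group, but the combinations share arrays, and the genes were selected with earlier results of these arrays known, so the count is a description. All 13 were the highest array of the group. Tnnc2 had 7: 8.79 in replicate 1 at 3 mg/kg on day 183, 4.81 in replicate 1 at 3 mg/kg on day 197, 7.29 in replicate 1 at 50 mg/kg on day 183, 6.23 in replicate 3 at 50 mg/kg on day 237, 4.68 in vehicle replicate 3 on day 183, 5.40 in vehicle replicate 4 on day 197 and 3.88 in vehicle replicate 5 on day 85. Ckm had 4: 4.52 in replicate 1 at 3 mg/kg on day 183, 4.52 in replicate 1 at 50 mg/kg on day 183, 5.92 in replicate 2 at 50 mg/kg on day 309 and 3.05 in vehicle replicate 1 on day 85. In that vehicle group the other arrays held Ckm at 2.93 to 2.96, so the flagged gap was small. Acta1 had 2: 3.68 in replicate 1 at 3 mg/kg on day 183 and 4.18 in vehicle replicate 2 on day 267. Tnnc1, Tpm2 and Myl9 had none.

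In 2 of 216 pairs of responses, every antibody array lay on one side of the vehicle mean in one cell type and on the other side in another. Acta1 at 50 mg/kg on day 309 was above it in osteocytes and below it in osteoblasts, a gap of 1.48 between the responses (osteocytes minus osteoblasts). Ckm at 50 mg/kg on day 237 was below it in osteoblasts and above it in lining cells, a gap of -0.40 (osteoblasts minus lining cells). Neither difference was tested.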

How the results depend on the processing

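Of the 8 calls in surface captures, Tnnc1 on day 85 and Tpm2 and Myl9 on day 237 in osteoblasts, and Myl9 on day 237 in lining cells, passed under all 7 settings and each array left out; no value changed sign. Calls in osteoblasts numbered 6, and 4 to 7 over the settings. Tpm2 on day 29 missed the threshold in 4 settings. Its rise was 0.73 with no filter, 0.35 with the mean of probe sets and 0.73 with the compared groups alone. It was 0.74 without arrays with raised genes of the fast skeletal muscle list, a setting chosen after seeing the data. Myl9 on day 85 missed it with quantile normalization (0.69) and with the compared groups alone (0.80). Calls in lining cells numbered 2, and became 1 with the mean of probe sets, where Tpm2 on day 237 was 0.61, and 4 with array weights and 4 with the compared groups alone, which added Myl9 and Tnnc1 on day 183. Leaving out each array in turn gave 8 to 13 calls in osteocytes, 5 to 7 in osteoblasts, 1 to 2 in lining cells and 7 to 8 osteocyte arrays with 3 members raised. Members higher in osteocytes than in osteoblasts numbered 0, and 3 after quantile normalization; 1 was higher than in lining cells, and 4 after it (0 to 0 and 1 to 2 on leaving out arrays). The cause was not tested. Tnnc1 at 50 mg/kg in osteocytes on days 29 to 237 stayed between 2.005 and 3.63 under these settings and on leaving out arrays. No paired analysis was possible because the labels carry no replicate numbers. Groups of 3 to 5 arrays and signal near the array median limit Acta1, Ckm and Tnnc2.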
